A study of Mus musculus with 8 samples.

Results

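The genes described here are 39 genes of the cell division cycle: the 3 D-type cyclins, 12 genes that act at the start of DNA replication or during it (S phase), and 24 genes of mitosis. A probe set that names 1 of these genes alone was found for 38 of them, out of 18193 genes measured; Ccnb1 had none and so has no expression value here, which left 23 mitotic genes; its promoter is among those searched. Each gene is represented by its brightest probe set, that with the highest mean over the 8 arrays. The genes were chosen by name, with earlier results of these data known.

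The arrays compared ICC-DMP cells (3 arrays), ICC-MY cells (3 arrays) and whole tunica muscularis, the muscle layers of the wall (2 arrays). All came from BALB/c mouse pups 6 to 9 days old, from the small intestine, with no treatment named. ICC is the usual abbreviation for interstitial cells of Cajal, which pace the contractions of the gut and relay nerve signals to its muscle. DMP usually means deep muscular plexus and MY myenteric, although only the abbreviations appear in the labels. The labels do not say how the cells were isolated, whether animals were pooled, or whether replicates came from separate animals, so p-values measure the spread between these arrays. Kit, the receptor that defines interstitial cells of Cajal, was higher than in tunica muscularis by 3.27 in ICC-DMP and by 3.92 in ICC-MY on the log2 scale, with adjusted p = 0.00366 and 0.00112.

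Values are log2 expression values, so a difference of 1 is a 2-fold difference. Differences are group means subtracted, with the standard error (SE) and a p-value adjusted over all 18193 genes, and a gene is said to have risen or fallen only where that adjusted p was under 0.05. In RNA from many cells, fewer dividing cells and less of a transcript in each dividing cell cannot be told apart. The array medians lay between 4.18 and 4.30, and the file holds no detection calls. The values spread less widely on 2 arrays, ICC-MY replicate 1 (SD over probe sets 1.98) and tunica muscularis replicate 1 (2.06), than on the other arrays (2.22 to 2.31).

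A cell enters division when growth signals raise the D-type cyclins, which activate Cdk4 and Cdk6 and lift the block that the RB proteins place on E2F transcription factors. E2F targets, among them cyclin E and the MCM helicase, then start DNA replication. A later wave of genes, held down in resting cells by the DREAM complex and switched on by B-MYB and FOXM1, builds the spindle, the kinetochore and the machinery of cytokinesis. In the gut of young mice, muscle, glia and interstitial cells still multiply as the wall grows.

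By their group means, 35 of 35 S phase and mitotic genes stood under tunica muscularis in ICC-DMP, and 33 of 35 did in ICC-MY, all but Rrm2 and Ccnb2. All 3 D-type cyclins were higher in ICC-DMP by that measure, and 2 of 3 were higher in ICC-MY. Of the 38 genes, 13 fell and 1 rose in ICC-DMP against tunica muscularis. Over all genes, 7.32% fell and 3.72% rose in that comparison. In ICC-MY, 11 fell and 0 rose by limma, against 9.78% and 4.05% of all genes, and 2 were higher at an unadjusted p under 0.05. For the mean of both classes, 11 fell and 1 rose, where 9.32% of all genes fell and 3.69% rose. The median difference of the 38 genes from tunica muscularis was -0.81 in ICC-DMP and -0.69 in ICC-MY, and over all genes it was -0.04 and -0.02. Both comparisons use the same 2 tunica muscularis arrays.

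**Figure D1:**
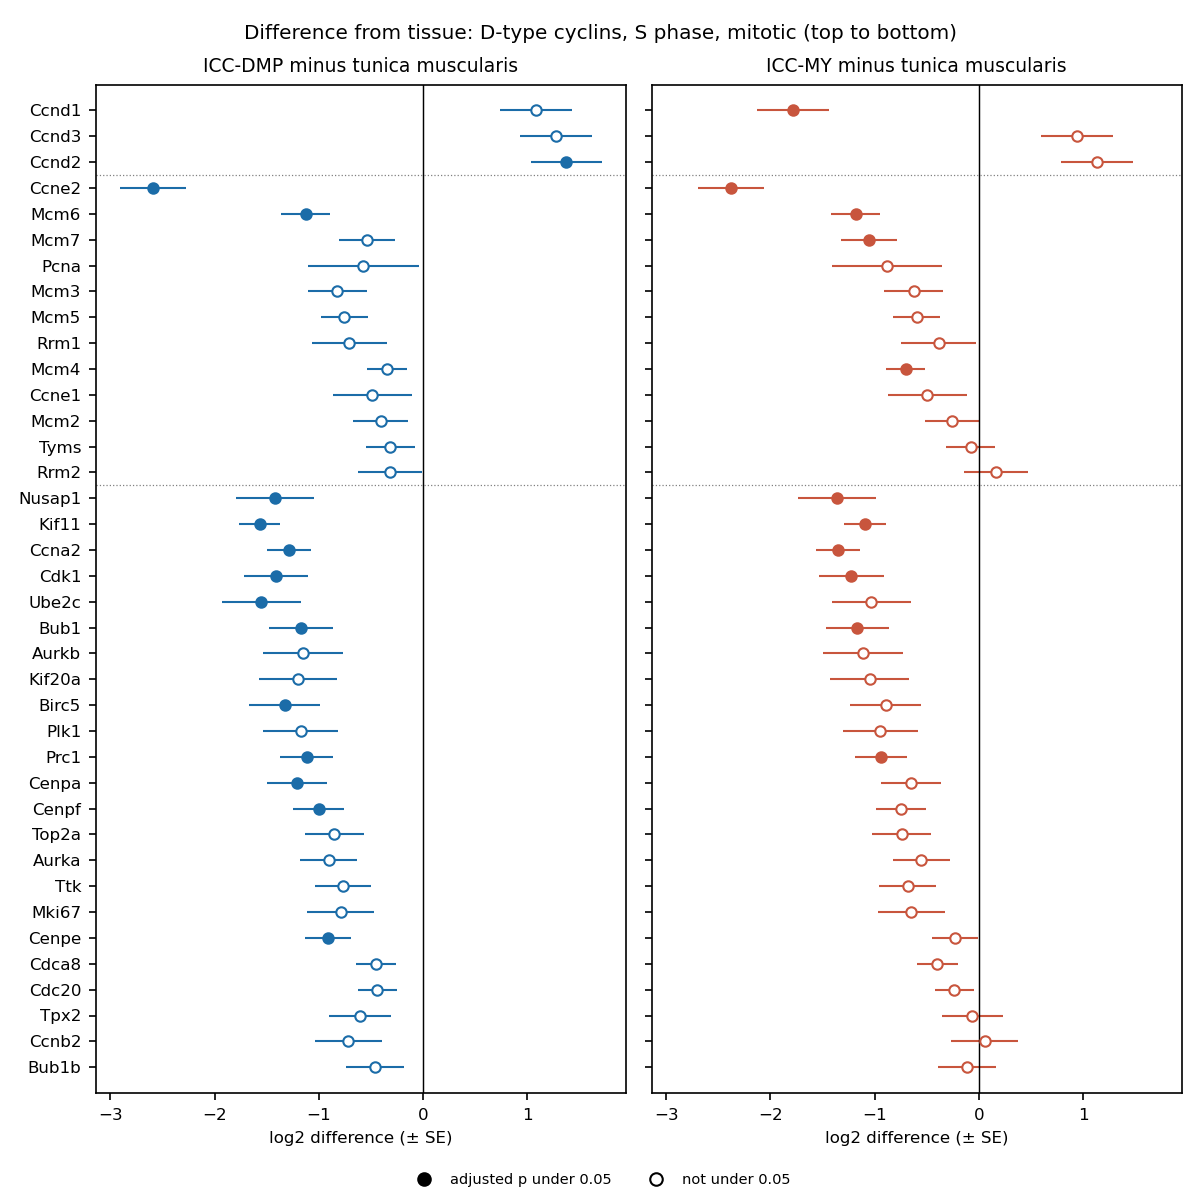
Difference from tunica muscularis of each of the 38 genes, in log2 units with its standard error, for ICC-DMP (left) and ICC-MY (right); filled points have an adjusted p under 0.05. All 35 S phase and mitotic genes lie left of 0 in ICC-DMP and 33 do in ICC-MY, while Ccnd2 and Ccnd3 lie right of 0 in both and Ccnd1 lies on opposite sides.

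The later wave has a known promoter signature, so the DNA around the start of the genes was searched. Mitotic genes of the DREAM class carry a short element called CHR, written TTTGAA, often with CCAAT boxes that bind NF-Y a short way upstream, while many S phase genes carry E2F sites. The windows were RefSeq's, on mouse build GRCm38.p6, from 250 bases before to 50 after the start of transcription, and 31 of the 39 genes had one. For Cdk1 (chr10:69352913-69353032, minus strand), Kif11 (chr19:37376262-37376381, plus strand), Ube2c (chr2:164769809-164769928, plus strand), Mcm6 (chr1:128359706-128359825, minus strand) and Nusap1 (chr2:119618178-119618297, plus strand), the last 120 bases before the start are printed 5′ to 3′ on the gene's strand. The first 3 show the mitotic layout, Mcm6 shows E2F letters, and Nusap1 is a mitotic gene with none of the motifs. Capitals mark CHR (TTTGAA, or TTCAAA where it lies on the opposite strand), CCAAT (or ATTGG) and, in Mcm6, the E2F letters.
Cdk1: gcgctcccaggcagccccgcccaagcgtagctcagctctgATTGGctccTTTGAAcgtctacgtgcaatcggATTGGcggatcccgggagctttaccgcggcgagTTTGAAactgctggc
Kif11: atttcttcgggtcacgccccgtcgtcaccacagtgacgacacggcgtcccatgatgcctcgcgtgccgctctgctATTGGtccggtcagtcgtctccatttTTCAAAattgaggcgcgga
Ube2c: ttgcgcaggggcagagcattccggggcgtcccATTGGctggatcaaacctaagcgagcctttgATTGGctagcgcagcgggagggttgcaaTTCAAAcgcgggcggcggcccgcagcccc
Mcm6: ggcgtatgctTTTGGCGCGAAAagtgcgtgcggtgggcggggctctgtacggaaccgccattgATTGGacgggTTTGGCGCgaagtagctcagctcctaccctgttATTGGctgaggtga
Nusap1: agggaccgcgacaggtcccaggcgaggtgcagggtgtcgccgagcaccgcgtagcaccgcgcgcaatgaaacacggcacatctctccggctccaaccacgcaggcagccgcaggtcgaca

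CHR letters stood in the windows of 15 of 20 mitotic genes and 1 of 10 S phase genes, against 20.2% of the 27025 genes with a window. All 15 of those mitotic windows also held CCAAT, a pairing found in 7.97% of all genes. Over the windows of the 16 genes with CHR letters, 13 of 21 matches began before the start of transcription. Prc1 has overlapping windows that hold the same match, which is counted in each. In Aurka, Bub1b, Cdca8, Cenpa, Cenpf, Plk1 and Ttk the CHR letters lay only after the start. CCAAT stood in 18 of 20 mitotic and 8 of 10 S phase windows, and in 41.1% of all genes. The E2F letters searched were TTTCCCGC, TTTCGCGC, TTTGCCGC and TTTGGCGC, on both strands; matches may overlap, as the first 2 in Mcm6 do. They stood in 4 of 10 S phase windows and 1 of 20 mitotic windows, that of Cdk1 outside the stretch printed, against 2.61% of all genes. Birc5, Ccne1, Nusap1 and Tyms held none of the 3 motifs. A match shows only that the letters are present in the window.

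The D-type cyclins link growth signals to the head of the cycle, and by the test Ccnd2 rose in ICC-DMP and Ccnd1 fell in ICC-MY. Ccnd1, cyclin D1, read 8.50, 8.80 and 9.47 in ICC-DMP, 6.07, 6.49 and 5.62 in ICC-MY, and 7.57 and 8.12 in tunica muscularis. Every ICC-DMP array was above, and every ICC-MY array below, both tunica muscularis arrays. The difference from tunica muscularis was 1.08 (SE 0.35, adjusted p = 0.0956) in ICC-DMP, which did not pass, and -1.78 (SE 0.35, adjusted p = 0.0101) in ICC-MY. Without tunica muscularis replicate 2 the ICC-MY difference had adjusted p = 0.0744. Set against each other, ICC-DMP exceeded ICC-MY by 2.86 (SE 0.31, adjusted p = 0.000656), and that difference kept an adjusted p between 0.00104 and 0.00489 with each array left out. Within a replicate number it was 2.43, 2.31 and 3.85. Ccnd1 has 3 probe sets, each of which placed ICC-DMP above tunica muscularis and tunica muscularis above ICC-MY on every array; ICC-DMP exceeded ICC-MY by 1.69, 1.83 and 2.86 on them.

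Ccnd2, cyclin D2, was the member that rose in ICC-DMP. It read 10.76, 10.97 and 11.29 in ICC-DMP, 10.11, 10.92 and 11.26 in ICC-MY, and 9.36 and 9.90 in tunica muscularis. All 6 ICC arrays were above both tunica muscularis arrays. The difference was 1.38 (SE 0.34, adjusted p = 0.0374) in ICC-DMP, 1.13 (SE 0.34, adjusted p = 0.0669) in ICC-MY and 1.25 (SE 0.31, adjusted p = 0.0305) for the mean of the classes. With the replicate number as a block the ICC-MY difference passed (0.94, adjusted p = 0.00934). The ICC-DMP call was lost on leaving out any ICC-DMP array, ICC-MY replicate 2 or either tunica muscularis array, with adjusted p up to 0.202, and also with arrays centred on their medians.

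Ccnd3, cyclin D3, read 9.08, 8.97 and 9.13 in ICC-DMP, 7.95, 8.94 and 9.28 in ICC-MY, and 7.62 and 7.94 in tunica muscularis. ICC-MY replicate 1 was the nearest to tunica muscularis, and no ICC array overlapped with it. The differences just missed the threshold at 1.28 (SE 0.35, adjusted p = 0.0518) in ICC-DMP and 1.11 (SE 0.31, adjusted p = 0.0517) for the mean of the classes. With the replicate block both passed (1.12, adjusted p = 0.0255, and 0.95, adjusted p = 0.0301). In ICC-MY the Ccnd3 difference was 0.94 (SE 0.35, adjusted p = 0.1275), and it did not pass with the block (0.79, adjusted p = 0.0853). Between ICC-DMP and ICC-MY, Ccnd2 differed by 0.24 and Ccnd3 by 0.34, neither of which passed; the sign turned for both without ICC-MY replicate 1, to -0.08 and -0.05, and for Ccnd2 with quantile normalization and with array weights.

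**Figure D2:**
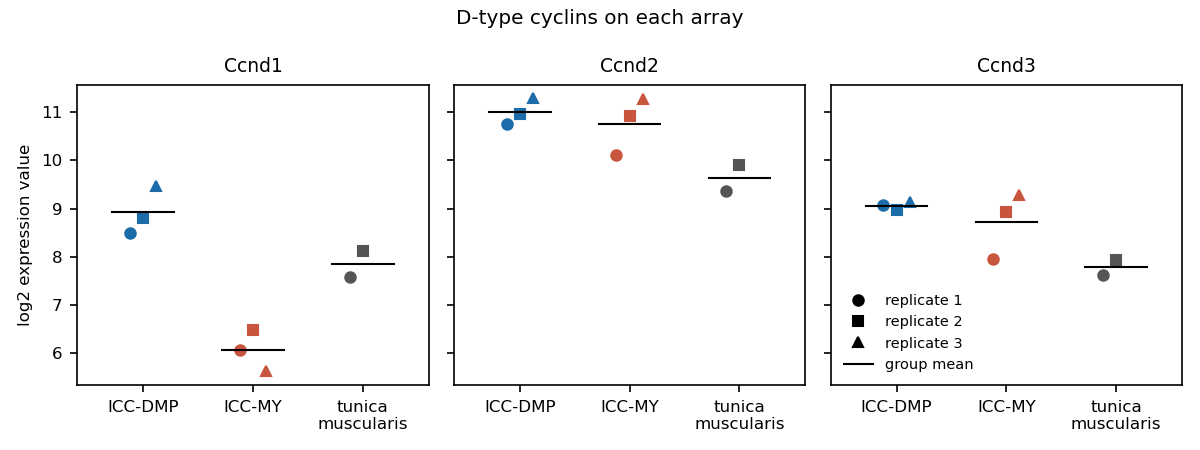
Log2 expression value of Ccnd1, Ccnd2 and Ccnd3 on each of the 8 arrays, with symbols for the replicate number and lines for group means. Ccnd1 runs from 8.50 to 9.47 in ICC-DMP and from 5.62 to 6.49 in ICC-MY, on either side of tunica muscularis, while Ccnd2 and Ccnd3 are above tunica muscularis in both.

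Of the S phase genes, 2 of 12 fell in ICC-DMP and 4 of 12 in ICC-MY, where 7.32% and 9.78% of all genes fell. Their median differences were -0.55 and -0.61. Ccne2, cyclin E2, which activates Cdk2 at the start of replication, read 4.88, 4.76 and 3.81 in ICC-DMP, 4.65, 4.92 and 4.52 in ICC-MY, and 7.26 and 6.89 in tunica muscularis. ICC arrays stood near the array medians, and both tunica muscularis arrays were nearly 2 units or more above every ICC array. It fell by 2.59 (SE 0.32, adjusted p = 0.00116) in ICC-DMP and by 2.38 (SE 0.32, adjusted p = 0.00147) in ICC-MY, and the call was kept with each array left out and under every alternative. Ccne1, the other cyclin E, differed by -0.49 and -0.49 and passed in neither.

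The MCM proteins form the ring that unwinds DNA at replication origins. Mcm6 read 7.46, 7.50 and 7.01 in ICC-DMP, 6.88, 7.49 and 7.45 in ICC-MY, and 8.49 and 8.41 in tunica muscularis. All 6 ICC arrays were below tunica muscularis, with differences of -1.13 (SE 0.24, adjusted p = 0.0177) in ICC-DMP and -1.18 (SE 0.24, adjusted p = 0.0115) in ICC-MY. Mcm7 read 9.58, 9.46 and 9.62 in ICC-DMP, 8.46, 9.23 and 9.42 in ICC-MY, and 9.97 and 10.21 in tunica muscularis. Its difference was -0.53 (SE 0.27, adjusted p = 0.318) in ICC-DMP, which did not pass, and -1.05 (SE 0.27, adjusted p = 0.0349) in ICC-MY, which did. Mcm4 read 8.72, 8.80 and 8.60 in ICC-DMP, 8.22, 8.46 and 8.37 in ICC-MY, and 8.79 and 9.33 in tunica muscularis. ICC-DMP replicate 2 just exceeded the lower tunica muscularis array, no ICC-MY array did, and the differences were -0.35 (SE 0.19, adjusted p = 0.365) in ICC-DMP and -0.70 (SE 0.19, adjusted p = 0.0433) in ICC-MY. The ICC-MY call of Mcm4 was lost on leaving out 7 of the 8 arrays (adjusted p up to 0.234) and in 4 of 9 other alternatives, and that of Mcm7 on leaving out 6 (adjusted p up to 0.166) and in 2 of 9 others. The classes are not shown to differ in Mcm4 and Mcm7, since ICC-DMP minus ICC-MY was 0.35 (SE 0.17, adjusted p = 0.33) for Mcm4 and 0.52 (SE 0.24, adjusted p = 0.312) for Mcm7. Mcm2, Mcm3 and Mcm5 differed from tunica muscularis by -0.41 to -0.82 in ICC-DMP and -0.26 to -0.62 in ICC-MY and did not pass, although every ICC array of Mcm3 and Mcm5 was below both tunica muscularis arrays.

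Pcna, the sliding clamp of DNA polymerase, overlapped between groups. It read 10.21, 10.64 and 9.23 in ICC-DMP, 8.95, 10.58 and 9.64 in ICC-MY, and 10.30 and 10.91 in tunica muscularis. The differences were -0.57 (SE 0.53, adjusted p = 0.663) in ICC-DMP and -0.88 (SE 0.53, adjusted p = 0.385) in ICC-MY. Rrm1 and Rrm2, the subunits of ribonucleotide reductase, and Tyms, thymidylate synthase, also did not pass; Rrm2 was 1 of 2 S phase or mitotic genes on the higher side in ICC-MY, at 0.16. The probe set of Tyms read below the array medians in every group.

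Of the mitotic genes, 11 of 23 fell in ICC-DMP and 6 of 23 in ICC-MY, where 7.32% and 9.78% of all genes fell. Their median differences were -1.12 and -0.74. All 23 had their 3 ICC-DMP arrays below both tunica muscularis arrays, an arrangement held by 23.1% of all genes. In ICC-MY 16 of 23 did, against 20.7% of all genes, and 16 of 23 did on all 6 ICC arrays together, against 13.7%. Ccnb2, cyclin B2, was the only one on the higher side in ICC-MY, at 0.06.

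The engine of mitotic entry is Cdk1 with its cyclins. Ccna2, cyclin A2, which also acts in S phase, read 8.34, 8.35 and 8.17 in ICC-DMP, 7.81, 8.46 and 8.40 in ICC-MY, and 9.59 and 9.55 in tunica muscularis. The tunica muscularis arrays lay more than 1 unit above every ICC array. It fell by 1.29 (SE 0.21, adjusted p = 0.00554) in ICC-DMP and by 1.35 (SE 0.21, adjusted p = 0.00338) in ICC-MY, and the call was kept with each array left out. Cdk1 read 7.95, 7.87 and 7.23 in ICC-DMP, 7.32, 8.19 and 8.10 in ICC-MY, and 9.08 and 9.11 in tunica muscularis. ICC-DMP replicate 3 and ICC-MY replicate 1 were the lowest, and the differences were -1.41 (SE 0.31, adjusted p = 0.0217) in ICC-DMP and -1.22 (SE 0.31, adjusted p = 0.0328) in ICC-MY.

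Spindle motors and bundling proteins separate the chromosomes. Kif11, the motor that pushes the spindle poles apart, read 5.48, 5.15 and 5.06 in ICC-DMP, 5.84, 5.55 and 5.72 in ICC-MY, and 7.02 and 6.58 in tunica muscularis. It fell by 1.57 (SE 0.20, adjusted p = 0.00141) in ICC-DMP and by 1.09 (SE 0.20, adjusted p = 0.00744) in ICC-MY, and kept both calls with each array left out; the ICC-MY call was lost where all probe sets of the gene were averaged. Nusap1, which stabilises spindle microtubules, read 7.57, 7.80 and 6.93 in ICC-DMP, 6.79, 8.01 and 7.68 in ICC-MY, and 8.79 and 8.92 in tunica muscularis. Its differences were -1.42 (SE 0.37, adjusted p = 0.0466) in ICC-DMP and -1.36 (SE 0.37, adjusted p = 0.0464) in ICC-MY, and no ICC array reached tunica muscularis. Prc1, which bundles microtubules at the spindle midzone, read 8.06, 7.92 and 7.81 in ICC-DMP, 7.63, 8.24 and 8.46 in ICC-MY, and 9.24 and 8.86 in tunica muscularis. It fell in both classes, by 1.12 (SE 0.25, adjusted p = 0.0249) in ICC-DMP and by 0.94 (SE 0.25, adjusted p = 0.043) in ICC-MY.

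**Figure D3:**
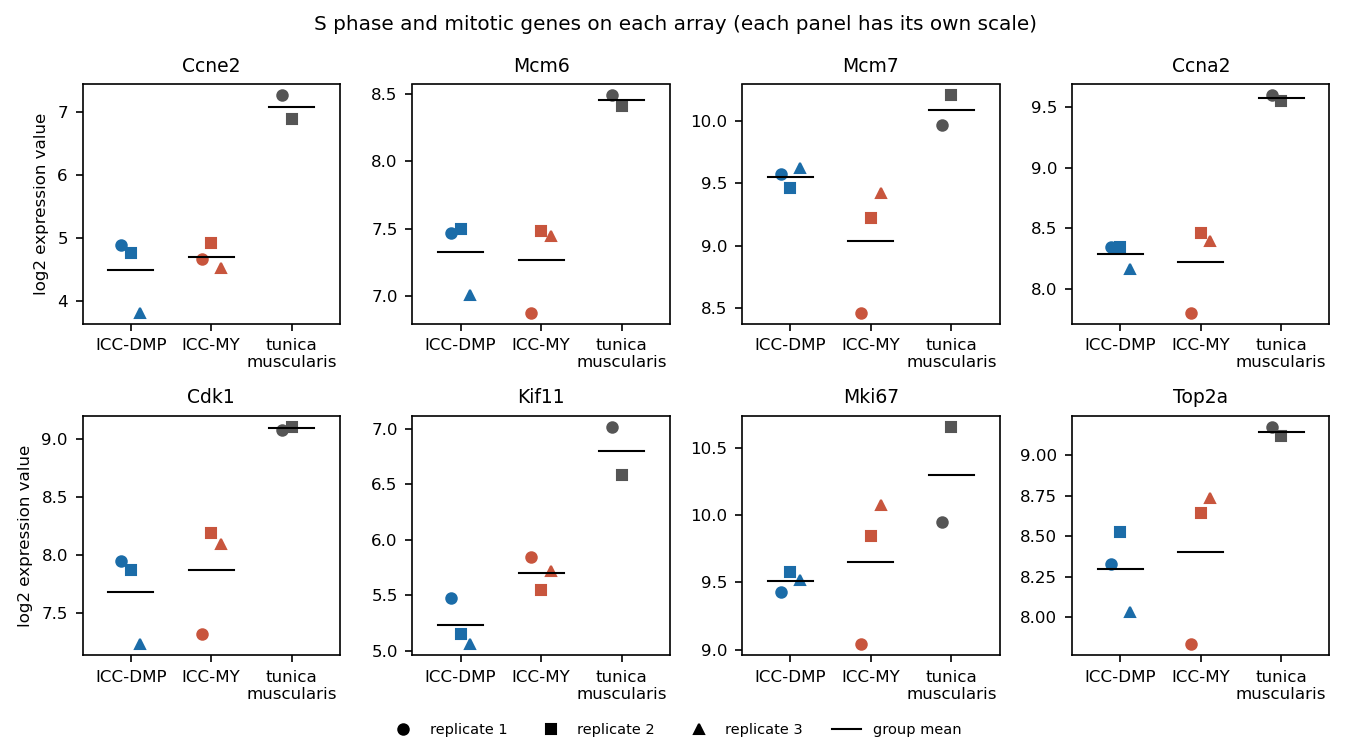
Log2 expression value of 8 S phase and mitotic genes on each of the 8 arrays, with symbols for the replicate number and lines for group means; each panel has its own axis range. For Ccne2, Mcm6, Mcm7, Ccna2, Cdk1, Kif11 and Top2a all 6 ICC arrays lie below both tunica muscularis arrays. ICC-MY replicate 1 is the lowest array of its class in all panels but Ccne2 and Kif11.

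At the kinetochore, where chromosomes meet the spindle, Bub1, a kinase of the spindle checkpoint, read 6.13, 6.57 and 5.88 in ICC-DMP, 5.62, 6.43 and 6.55 in ICC-MY, and 7.30 and 7.43 in tunica muscularis. It fell by 1.17 (SE 0.31, adjusted p = 0.0448) in ICC-DMP and by 1.17 (SE 0.31, adjusted p = 0.0387) in ICC-MY. Cenpa, the histone that marks the centromere, read 7.78, 7.75 and 7.89 in ICC-DMP, 7.81, 8.42 and 8.86 in ICC-MY, and 9.23 and 8.81 in tunica muscularis. Its ICC-MY arrays spread from just under 8 to just over the lower tunica muscularis array, and it fell in ICC-DMP, at -1.21 (SE 0.29, adjusted p = 0.0311), and did not pass in ICC-MY, at -0.66 (SE 0.29, adjusted p = 0.208).

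Cenpe, a kinetochore motor, read 6.60, 6.43 and 6.14 in ICC-DMP, 7.06, 6.90 and 7.27 in ICC-MY, and 7.57 and 7.04 in tunica muscularis. ICC-MY overlapped with tunica muscularis and ICC-DMP did not, with differences of -0.91 (SE 0.22, adjusted p = 0.0329) in ICC-DMP and -0.23 (SE 0.22, adjusted p = 0.642) in ICC-MY. Cenpf, a large kinetochore protein, read 7.91, 8.05 and 8.16 in ICC-DMP, 7.91, 8.23 and 8.77 in ICC-MY, and 9.04 and 9.06 in tunica muscularis. It fell in ICC-DMP, at -1.003 (SE 0.24, adjusted p = 0.0323), and in ICC-MY, where no array overlapped with tunica muscularis, it was -0.74 (SE 0.24, adjusted p = 0.0856).

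Birc5, survivin, which guides the Aurora B kinase to the centromere, read 5.71, 5.60 and 5.51 in ICC-DMP, 5.38, 6.30 and 6.44 in ICC-MY, and 7.31 and 6.56 in tunica muscularis. It fell in ICC-DMP, at -1.33 (SE 0.34, adjusted p = 0.0418), and was -0.90 (SE 0.34, adjusted p = 0.14) in ICC-MY. Ube2c, the ubiquitin-conjugating enzyme that works with the anaphase-promoting complex, read 5.49, 5.17 and 4.95 in ICC-DMP, 5.16, 6.00 and 6.02 in ICC-MY, and 7.32 and 6.20 in tunica muscularis. The 2 tunica muscularis arrays differed by more than 1 unit; it fell in ICC-DMP, at -1.55 (SE 0.38, adjusted p = 0.035), and was -1.03 (SE 0.38, adjusted p = 0.129) in ICC-MY. For these 5 genes, Cenpa, Cenpe, Cenpf, Birc5 and Ube2c, ICC-DMP minus ICC-MY ran from -0.69 to -0.26 and did not pass over all arrays. Cenpe passed with the replicate block (adjusted p = 0.0358) and Cenpa without ICC-MY replicate 1 (adjusted p = 0.0334). With array weights both passed (adjusted p = 0.0343 for Cenpe and 0.019 for Cenpa), and Cenpe passed with probe sets averaged (adjusted p = 0.0344). Without the 2 arrays of narrow spread, a fit with 1 tunica muscularis array, Birc5 was -0.76, Ube2c -0.80, Cenpa -0.83 and Cenpe -0.69.

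Mki67, a widely used proliferation marker that coats mitotic chromosomes, did not pass. It read 9.43, 9.58 and 9.52 in ICC-DMP, 9.04, 9.84 and 10.07 in ICC-MY, and 9.95 and 10.66 in tunica muscularis. ICC-DMP lay below both tunica muscularis arrays and ICC-MY overlapped with them. The differences were -0.79 (SE 0.32, adjusted p = 0.192) in ICC-DMP and -0.65 (SE 0.32, adjusted p = 0.272) in ICC-MY. With the replicate block they passed, at -0.90 (adjusted p = 0.0284) and -0.76 (adjusted p = 0.0485). Top2a, the topoisomerase that untangles sister chromatids, read 8.33, 8.52 and 8.03 in ICC-DMP, 7.83, 8.64 and 8.74 in ICC-MY, and 9.18 and 9.12 in tunica muscularis. All 6 ICC arrays were below tunica muscularis, with differences of -0.85 (SE 0.28, adjusted p = 0.105) in ICC-DMP and -0.74 (SE 0.28, adjusted p = 0.14) in ICC-MY.

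Aurka, Aurkb, Plk1 and Ttk, which are mitotic kinases, Kif20a, a motor of cytokinesis, and Cdca8, a partner of Aurora B, were also below tunica muscularis on all 6 ICC arrays without passing. Their differences ran between -1.20 and -0.45 in ICC-DMP and between -1.11 and -0.40 in ICC-MY. Cdc20, Tpx2, Bub1b and Ccnb2 were below tunica muscularis on all ICC-DMP arrays, with differences of -0.44 to -0.72. In ICC-MY they lay between -0.24 and 0.06.

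How many genes passed depended on single arrays and on the replicate number. With each of the 8 arrays left out, the count of 14 for ICC-DMP ranged from 3 to 21, the count of 11 for ICC-MY from 5 to 12, and the count of 12 for the mean of the classes from 4 to 19. Ccne2, Ccna2 and Kif11 were the calls kept in all 3 comparisons each time. Without tunica muscularis replicate 1, 11 of the 14 calls in ICC-DMP were lost (adjusted p from 0.0821 to 0.235), as were 6 of 11 in ICC-MY and 9 of 12 for the mean; the 1 tunica muscularis array left is then taken to vary as the other groups do. Without tunica muscularis replicate 2, 7 of 11 calls in ICC-MY were lost, and without ICC-DMP replicate 3, 11 of 14 in ICC-DMP. The counts in ICC-DMP were 5, 4 and 3 without ICC-DMP replicates 1, 2 and 3, 9 without ICC-MY replicate 2, and 3 and 8 without tunica muscularis replicates 1 and 2. The counts in ICC-MY were 5 and 6 without ICC-DMP replicates 1 and 2, 7 without ICC-MY replicate 2, and 5 and 6 without tunica muscularis replicates 1 and 2. For the mean they were 6 and 7 without ICC-DMP replicates 1 and 3, 19 without ICC-MY replicate 1, and 4 without tunica muscularis replicate 1. Averaging the probe sets of a gene lost the calls of Cenpa and Cenpf in ICC-DMP and of Kif11 and Prc1 in ICC-MY. Centring arrays on their medians lost those of Ccnd2, Bub1, Birc5 and Nusap1 in ICC-DMP and of Mcm4 and Nusap1 in ICC-MY. With the replicate number as a block, 20 genes passed for the mean of the classes, 18 lower and 2 higher. The share of all genes that passed also grew, from 13.0% without the block to 17.5% with it. Aurkb (-1.36), Ccnd3, Cenpa (-1.08), Mcm5 (-0.74), Mcm7 (-0.91), Mki67 (-0.83), Plk1 (-1.11) and Ttk (-0.78) joined. The block also added Aurkb (-1.38), Mcm5 (-0.82), Plk1 (-1.22) and Ttk (-0.82) in ICC-DMP and Aurkb (-1.34), Cenpf (-0.89) and Ttk (-0.73) in ICC-MY.

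The values can also be taken within a replicate number. Within replicate number 1 the median difference of the 35 S phase and mitotic genes was -0.89 in ICC-DMP and -1.19 in ICC-MY, with all 35 below 0 in both. Within number 2 it was -0.71 in ICC-DMP (34 of 35 below 0) and -0.38 in ICC-MY (28 of 35 below 0). Number 3 has no tunica muscularis array.

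**Figure D4:**
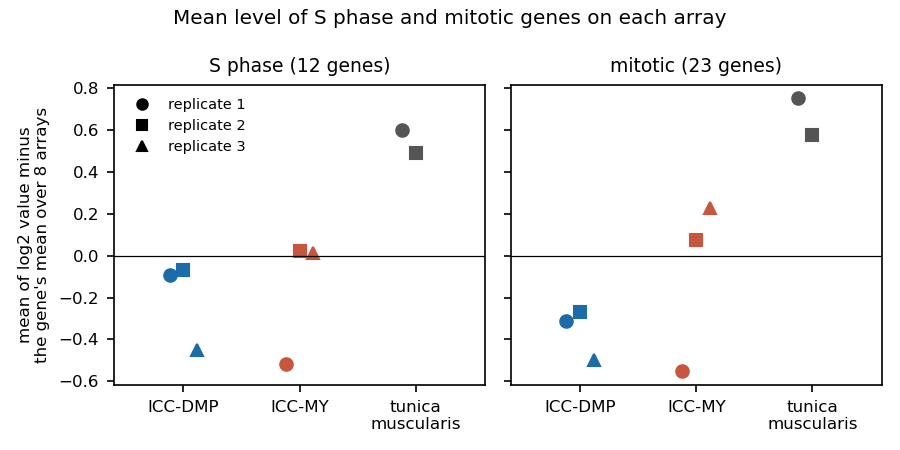
Mean over the S phase genes (left) and the mitotic genes (right) of each gene's log2 value minus its own mean over the 8 arrays, with 1 point an array and symbols for the replicate number. The tunica muscularis arrays are highest in both panels (0.60 and 0.49, and 0.75 and 0.57), and ICC-MY replicate 1 is lowest (-0.52 and -0.55).

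Between the 2 ICC classes only Ccnd1 passed, as 1 gene higher in ICC-DMP, where 5.36% of all genes were higher and 3.30% lower. By limma 0 S phase or mitotic genes passed, and at an unadjusted p under 0.05 there were 4 of the 38 genes, Ccnd1, Cenpe, Ccnb2 and Kif11. Of the 38 genes, 6 had arrays that did not overlap between the classes, against 25.6% of all genes. Ccnd1, Mcm4 and Mcm7 were the non-overlapping genes on the higher side in ICC-DMP and Plk1, Kif11 and Cenpe those on the lower side. For mitotic genes the median difference was -0.20, with 22 of 23 below 0, and for S phase genes it was -0.15, with 7 of 12 below 0. The sign was not the same in each replicate number: the median over the 35 S phase and mitotic genes was 0.33 for number 1, -0.26 for number 2 and -0.66 for number 3.

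ICC-MY replicate 1 moved this comparison, in which 8.67% of all genes passed over all arrays and 10.1% without that array. Without it 6 genes passed: Ccnd1 was higher in ICC-DMP, and Ccnb2 (-1.13, adjusted p = 0.00442), Tpx2 (-0.86, adjusted p = 0.0152), Cenpa (-0.83, adjusted p = 0.0334), Rrm2 (-0.80, adjusted p = 0.0287) and Bub1b (-0.65, adjusted p = 0.0278) were lower. Cenpe, at -0.69 (SE 0.20, adjusted p = 0.0777) over all arrays, passed where the replicate number was a block (adjusted p = 0.0358). It also passed with only the 2 ICC classes fitted (adjusted p = 0.0489). Leaving out either tunica muscularis array gives that same result, since the 1 array left adds no spread. With the block, and with only the classes fitted, 2 genes passed, where 14.4% and 9.69% of all genes did.

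The 8 lists of other cell cycle genes held 94 genes, of which 93 were measured. The counts by list stand beside 7.32% of all genes that fell and 3.72% that rose in ICC-DMP. In ICC-MY these shares were 9.78% and 4.05%. Among genes that load and fire replication origins, 6 of 17 fell and 1 rose in ICC-DMP, and 5 fell and 0 rose in ICC-MY, where at an unadjusted p under 0.05 there were 9 lower and 0 higher. Gins2, a helicase subunit, was -1.27 (SE 0.25, adjusted p = 0.0142) in ICC-DMP, and Gmnn, which blocks repeated licensing, was -1.17 (SE 0.27, adjusted p = 0.026); Cdc7, a kinase that fires origins, and Gins1, another helicase subunit, were -1.17 and -1.10. In ICC-MY the licensing factors Cdt1 and Cdc6 were -1.26 (SE 0.32, adjusted p = 0.0317) and -1.20 (SE 0.29, adjusted p = 0.0264). Orc1, an origin recognition subunit, was the gene that rose in ICC-DMP, at 0.81 (SE 0.21, adjusted p = 0.0436), and is named after its value was seen; the call was lost where its probe sets were averaged, at 0.24.

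Of the 13 measured genes of DNA polymerases and nucleotide supply, 6 fell in each class. The clamp loader subunit Rfc4 was -1.54 (SE 0.33, adjusted p = 0.0196) in ICC-DMP and -1.81 (SE 0.33, adjusted p = 0.00712) in ICC-MY, and thymidine kinase Tk1 was -1.52 (SE 0.30, adjusted p = 0.0132) in ICC-DMP and -1.24 (SE 0.30, adjusted p = 0.0272) in ICC-MY. Of 12 other spindle checkpoint and kinetochore genes, 4 fell in each class. Cenpk, a kinetochore subunit, was -2.03 (SE 0.17, adjusted p = 0.000155) in ICC-DMP and -2.27 (SE 0.17, adjusted p = 6.91e-05) in ICC-MY. Spc25, of the NDC80 complex, was -1.35 in ICC-DMP and -1.15 in ICC-MY. Mad2l1, the checkpoint protein MAD2, fell in ICC-DMP, at -1.41 (SE 0.29, adjusted p = 0.0167), and was lower there than in ICC-MY, at -1.04 (SE 0.26, adjusted p = 0.045).

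Cdk6, a kinase that D-type cyclins activate, was -0.12 (SE 0.23, adjusted p = 0.872) in ICC-DMP and fell in ICC-MY, at -1.83 (SE 0.23, adjusted p = 0.00107). ICC-DMP exceeded ICC-MY in it by 1.71 (SE 0.21, adjusted p = 0.0012). Of the 13 G1 kinases and activators, 0 passed by limma in ICC-DMP, where 2 were lower at an unadjusted p under 0.05, and 2 fell in ICC-MY, the other being the CDK subunit Cks2, at -1.01 (SE 0.21, adjusted p = 0.0141). In the RB and E2F family, E2f7, an atypical E2F that represses transcription, fell in both classes, at -1.59 (SE 0.27, adjusted p = 0.00607) in ICC-DMP and -1.65 (SE 0.27, adjusted p = 0.00406) in ICC-MY. Rbl1, the RB-related protein p107, also fell in ICC-MY, with adjusted p = 0.0397. Rb1 and Tfdp2, a partner of E2F proteins, were higher in ICC-DMP than in ICC-MY by 0.94 and 0.99. Of 8 activators of cell cycle genes, Lin54, the subunit of DREAM that reads the CHR element, fell in both, at -0.94 (SE 0.19, adjusted p = 0.0138) in ICC-DMP and -1.09 (SE 0.19, adjusted p = 0.00552) in ICC-MY. Both Lin54 calls were lost where its probe sets were averaged, at -0.26 (adjusted p = 0.154) in ICC-DMP and -0.27 (adjusted p = 0.133) in ICC-MY. Mycn, a MYC family factor, and Lin9, another subunit of the B-MYB complex, fell in ICC-MY, by 0.82 and 0.79 on the log2 scale. Myc was higher in ICC-DMP than in ICC-MY, at 0.62 (SE 0.14, adjusted p = 0.0311).

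Among CDK inhibitors and antiproliferative or p53 target genes, Cdkn1a, Btg2 and Sesn2 rose in both classes. Cdkn1a, the CDK inhibitor p21, read 9.07, 8.81 and 9.67 in ICC-DMP, 8.79, 8.98 and 9.14 in ICC-MY, and 7.30 and 7.19 in tunica muscularis. It rose by 1.94 (SE 0.25, adjusted p = 0.00151) in ICC-DMP and by 1.73 (SE 0.25, adjusted p = 0.00224) in ICC-MY, and was the only one of 7 CDK inhibitors that passed in either. Btg2, an antiproliferative gene that is also an immediate early and p53 target gene, read 10.55, 10.96 and 10.40 in ICC-DMP, 8.03, 8.68 and 7.82 in ICC-MY, and 6.26 and 6.89 in tunica muscularis. Both classes were above tunica muscularis, ICC-DMP further, by 4.06 (SE 0.31, adjusted p = 8e-05) in ICC-DMP and 1.60 (SE 0.31, adjusted p = 0.00956) in ICC-MY. In the list of 10 antiproliferative and p53 target genes, 5 rose in ICC-DMP, among them Tob1 (1.86), Sesn2 (1.26) and Gadd45a (1.18). In ICC-MY, 2 rose, Btg2 and Sesn2 (1.26), and Ccng2, cyclin G2, fell (-1.48). Between the classes 4 were higher in ICC-DMP: Btg2 (2.46), Gadd45a (1.86), Tob1 (1.85) and Ccng2 (1.56). Over the 8 lists, 6 of 25 calls in ICC-DMP, 7 of 26 in ICC-MY and 4 of 9 between the classes were kept with each array left out. Those kept were Btg2, Cdkn1a, Cenpk, E2f7, Sesn2 and Tob1 in ICC-DMP, Cdk6, Cdkn1a, Cenpk, E2f7, Lin54, Rfc4 and Sesn2 in ICC-MY, and Btg2, Cdk6, Gadd45a and Tob1 between the classes. Of the genes named from these lists, averaging probe sets lost the calls of Cdc7, Lin54 and Orc1 in ICC-DMP, of Ccng2, Lin54, Lin9, Mycn, Rbl1 and Spc25 in ICC-MY and of Ccng2 between the classes.

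Markers of several other cell types were lower in the ICC samples than in tunica muscularis. All 7 enteric neuron markers fell in both classes. Their mean log2 value was 3.51 to 3.64 in ICC-DMP, 3.58 to 3.72 in ICC-MY and 8.66 to 9.16 in tunica muscularis. All 7 macrophage markers fell in both classes, with list means of 3.63 to 3.73 in ICC-DMP, 3.79 to 4.09 in ICC-MY and 6.15 to 6.67 in tunica muscularis. All 5 mesothelial markers fell too, with list means of 3.64 to 3.76 in ICC-DMP, 3.39 to 3.54 in ICC-MY and 8.79 to 9.16 in tunica muscularis. Of 8 intestinal epithelial markers 3 fell in both classes, and their list mean was 3.54 to 3.72 in ICC-DMP, 3.57 to 3.90 in ICC-MY and 5.67 to 7.44 in tunica muscularis. Of 5 glia markers 2 fell in both classes, with list means of 5.06 to 5.24 in ICC-DMP, 4.73 to 4.86 in ICC-MY and 6.40 to 6.62 in tunica muscularis.

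Smooth muscle markers separated the classes, at 9.99 to 10.3 in ICC-DMP, 7.24 to 8.06 in ICC-MY and 10.7 to 11.6 in tunica muscularis, with 4 of 8 lower in ICC-DMP and 7 of 8 in ICC-MY. Of 6 endothelial markers 3 fell in ICC-DMP and 1 in ICC-MY, with list means of 3.69 to 3.93 in ICC-DMP, 4.26 to 5.23 in ICC-MY and 5.12 to 5.42 in tunica muscularis. Of 6 fibroblast markers 0 passed by limma in ICC-DMP (2 at an unadjusted p under 0.05) and 3 fell in ICC-MY, with list means of 10.9 to 11.5 in ICC-DMP, 9.70 to 10.6 in ICC-MY and 10.9 to 12.1 in tunica muscularis. Of 2 red blood cell markers measured 1 fell in each class, with list means of 2.72 to 2.84 in ICC-DMP, 2.78 to 2.98 in ICC-MY and 3.17 to 3.33 in tunica muscularis. The part of these cell types in the differences of the cell cycle genes was not tested. The actin control probe sets, 3′ minus 5′, which rise where RNA is shortened, were 2.92, 3.08 and 4.66 in ICC-DMP, 3.17, 3.03 and 4.28 in ICC-MY and 2.53 and 3.53 in tunica muscularis; their part was not tested either.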

How the data were processed

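Total RNA (about 50 ng a sample, per the labels' protocols, after 2 rounds of amplification from an oligo(dT) primer) was measured on single-channel arrays. The deposited values are log2 expression values, 1 for each of 45101 probe sets and each of 8 arrays; per the submitters' processing notes RMA and limma were used, with no version or role given. No normalization or filter was added. Control probe sets (64) were left out, the platform annotation gave 1 gene for 34945 of the other 45037, several for 932 and none for 9160, and 18193 genes were tested by their brightest probe set. The number of arrays limits the precision.

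The 3 groups were fitted together with limma 3.58.1 in R 4.3.3 (lmFit, contrasts.fit, eBayes, 5 residual and 3.17 prior degrees of freedom), with 2-sided tests and Benjamini-Hochberg adjustment over all genes; the script was tested on simulated data. The correlation of deviations from group means was 0.16 to 0.61 over the 7 pairs of same-numbered arrays, all above 0.1. Among unlike-numbered pairs, ICC-DMP replicate 3 with tunica muscularis replicate 1 reached 0.14. ICC-MY replicate 3 with tunica muscularis replicate 2 reached 0.17, and the other unlike-numbered pairs were negative. The deviations of the 2 tunica muscularis arrays mirror each other, so pairs with them are not separate observations. In the ICC classes, too, deviations cancel out within the group. The negative values of unlike-numbered pairs therefore follow in part from the positive ones and are not separate evidence of pairing. A fit with the number as a block is given where it was seen to change a call. Alternatives were quantile normalization, centring on medians, averaged or separate probe sets, a filter at 6, only the groups compared, array weights, and leaving out arrays. Values on each array are given for every gene that passed in any comparison, the D-type cyclins, Mki67, Top2a, Cdk1 and Pcna; from the other lists, at most 4 passing genes a comparison were named, by size. The genes and lists were chosen with earlier results of these data known. Promoter windows are RefSeq's.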

Additional observations from a re-analysis of the deposited data

Results flagged for a closer look

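The group means of Ccnd1 lay on opposite sides of tunica muscularis in the 2 ICC classes, by 1.08 in ICC-DMP and by -1.78 in ICC-MY on the log2 scale. By limma the ICC-DMP difference did not pass (adjusted p = 0.0956) and the ICC-MY difference did (adjusted p = 0.0101). The difference between these differences is ICC-DMP minus ICC-MY, 2.86 (SE 0.31), with adjusted p = 0.000656 by limma over all genes. It was higher in ICC-DMP in 3 of 3 replicate numbers.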

How the results depend on the processing

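The number of the 38 genes that passed moved by over 1.5 times as follows. With quantile normalization it was 23 in ICC-DMP against tunica muscularis, 24 for the mean of the classes and 3 between ICC-DMP and ICC-MY. With the replicate block it was 20 for the mean and 2 between the classes, where 17.5% and 14.4% of all genes passed. In the other lists Cenph lost its ICC-MY call with the block (-0.80, adjusted p = 0.0535). Among the 38 genes the block changed no call but those given. In the other lists only calls made without the block were followed, so calls gained there are not given. In ICC-MY against tunica muscularis the number of the 38 genes that passed was 5 with only those groups fitted and 7 with array weights. The shares of all genes were 8.4% and 12.2%, against 13.8% with all groups fitted and no weights. Between the classes it was 2 with probe sets averaged, 2 with only those groups fitted and 5 with array weights. The shares of all genes there were 9.63%, 9.69% and 14.5%. It moved too without the 2 arrays of narrow spread, a fit with 1 tunica muscularis array. With single arrays left out the counts ran from 3 to 21 in ICC-DMP, 5 to 12 in ICC-MY, 4 to 19 for the mean and 1 to 6 between the classes. Across the alternatives the S phase and mitotic genes tested all stood under tunica muscularis in ICC-DMP, except 1 gene without tunica muscularis replicate 1, alone or with ICC-MY replicate 1; in ICC-MY 27 to 35 of 35 did; Ccnb2 in ICC-MY was -0.05 with the replicate block. Between the classes, differences that had not passed turned sign: Ccnd2 was -0.0119 with quantile normalization, -0.0531 with array weights and -0.0841 without the narrow arrays, Ccnd3 and Pcna were -0.0495 and -0.0784 without them, and Top2a was 0.0368 with probe sets averaged. With single arrays left out, the same differences ran from -0.396 to 0.0567 for Top2a, -0.463 to 0.0393 for Cdk1, -0.0841 to 0.492 for Ccnd2, -0.0495 to 0.613 for Ccnd3, -0.0784 to 0.738 for Pcna and -0.449 to 0.0671 for Mki67. The cause of these shifts was not tested. Some passing genes had further probe sets; at least 1 of these passed the same way for 3 of 10 such genes in ICC-DMP, 4 of 9 in ICC-MY and 4 of 8 for the mean, and 0 passed the opposite way. Centring on medians, the filter at 6 and separate probe sets kept each count within 1.5 times.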
